A study of Mus musculus with 69 samples.

Results

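The genes described here encode enzymes and regulators of cholesterol and fatty acid synthesis. The list holds 31 genes by symbol, and all 31 were among the 17628 genes measured in 69 mouse lungs. They were covered by 51 probes, and 16 of them by a single probe. All 31 had a probe well above background on 69 of 69 arrays. Other probes were on fewer, such as a probe of Hmgcs1 (59 arrays) and probes of Acaca (67, 67 and 68). The list comprised 7 genes of the mevalonate branch, 3 of squalene and lanosterol formation, 9 of the steps from lanosterol to cholesterol, 4 regulators and carriers, and 8 of fatty acid synthesis and desaturation.

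The animals were female C57BL/6 mice, which were 5 to 7 weeks old on arrival and were acclimatised for 1 to 3 weeks. Each mouse received a single instillation into the trachea. It held 18, 54 or 162 µg of titanium dioxide nanoparticles, either unmodified (NRCWE-001) or with a positively charged surface (NRCWE-002), or the vehicle alone. The labels call the vehicle water, and the study's methods give it 2% serum. Lungs were taken after 1 or 28 days, with 5 mice per group except for 4 in the vehicle group of day 28, and 1 mouse per array. All mice were of the same strain and sex. A piece of whole lung was used, so fewer cells of a type and less RNA per cell cannot be told apart.

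Every level below is a log2 ratio of the lung to a commercial mouse reference RNA on the same array. Every change is a difference between group means of these ratios, given with the standard error of the limma fit. A gene was called where the Benjamini-Hochberg adjusted p over all 17628 genes was below 0.05. The 69 arrays lay on 18 slides, and after removal of group means the slide took a median of 59.5% of a member's remaining variance (range 19.3 to 90.5%), with 30.9% of the remaining degrees of freedom. The median over all genes was 61.6%. Slides and groups overlapped in part, so values with slide as a block are given beside the main ones. The share of spots well above background in the lung channel was 61.4 to 87.8% per array.

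Cholesterol is built from acetyl-CoA. The mevalonate branch makes isoprenoid units, squalene is formed and closed into lanosterol, and lanosterol is trimmed to cholesterol. The transcription factors SREBP2 (gene Srebf2) and SREBP1 (gene Srebf1) drive these genes when sterols in the endoplasmic reticulum are low, and Insig1 holds the precursors back when sterols are plentiful. SREBP1 also drives the enzymes that make and desaturate fatty acids. In the lung, alveolar type 2 cells use both pathways for surfactant lipids, and macrophages take up and export sterol.

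SREBP acts through a sterol regulatory element together with the factor NF-Y, which binds CCAAT boxes, so the sequences before 3 start sites are shown. Hmgcs1 was the single member whose window held the letters TCACNCCAC, Mvk had group means that increased with dose for both particles on day 1, and Nsdhl was called. Each line gives 250 bases before the RefSeq start (assembly GRCm38.p6, plus strand, 5′ to 3′). Capitals mark CCAAT in either orientation and, in Hmgcs1, the sterol regulatory element. The regions are chr13:119690101-119690350 (Hmgcs1), chr5:114444019-114444268 (Mvk) and chrX:72918271-72918520 (Nsdhl).
Hmgcs1: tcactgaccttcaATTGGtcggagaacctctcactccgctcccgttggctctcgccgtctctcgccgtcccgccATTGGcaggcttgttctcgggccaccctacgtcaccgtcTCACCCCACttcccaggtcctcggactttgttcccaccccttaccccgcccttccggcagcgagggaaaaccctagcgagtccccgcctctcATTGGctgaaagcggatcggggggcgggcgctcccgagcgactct
Mvk: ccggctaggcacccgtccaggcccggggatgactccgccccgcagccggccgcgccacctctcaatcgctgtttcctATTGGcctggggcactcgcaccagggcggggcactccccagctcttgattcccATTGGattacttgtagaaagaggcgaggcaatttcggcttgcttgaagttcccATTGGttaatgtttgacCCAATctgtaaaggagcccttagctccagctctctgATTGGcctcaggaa
Nsdhl: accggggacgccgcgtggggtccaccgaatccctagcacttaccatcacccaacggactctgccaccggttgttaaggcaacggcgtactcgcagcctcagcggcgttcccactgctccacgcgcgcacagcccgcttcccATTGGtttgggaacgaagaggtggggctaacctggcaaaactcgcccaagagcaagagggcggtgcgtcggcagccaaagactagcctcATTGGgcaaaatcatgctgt

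Promoter windows of 300 bases, 250 before to 50 after the start, were given for 24 of the 31 genes. Fads1, Fdft1, Fdps, Scd1, Scd2, Sqle and Stard4 had none. On both strands, TCACNCCAC was found for 1 of the 24 members and for 1.5% of the 13992 tested genes with a window. CCAAT was found for 20 of 24 members (83.3%), against 41.9% of genes. GGGCGG, the GC box, was found for 20 of 24 (83.3%), against 57.2%. These are matches of letters and no measure of binding.

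On day 1 after 162 µg, most of the genes had higher levels than in vehicle lungs. After NRCWE-001, 25 of 31 were higher, with a median log2 change of 0.22, while 53.1% of all genes were higher and their median was 0.01. After NRCWE-002, 28 of 31 were higher, with a median of 0.28, against 54.9% of all genes and a median of 0.01. For single genes the changes were small, from -0.17 to 0.58 and from -0.16 to 0.61. Fdps and Sqle had the highest values for both particles, and Srebf1 had the lowest.

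Limma called 0 of 31 members for NRCWE-001 at 162 µg on day 1, where 0.579% of all genes were called. At an unadjusted p below 0.05 there were 9 members, 8 of them higher, against 7.07% of all genes (4.43% higher). For NRCWE-002 it called 1, Nsdhl, where 0.596% of all genes were called. At an unadjusted p below 0.05 there were 16 members, all 16 higher, against 8.94% (5.77% higher). Without replicate 5 of the NRCWE-001 lungs, 3 members were called (Fdps, Sqle and Fads2, where 1.65% of all genes were). Without replicate 5 of the NRCWE-002 lungs, 3 were as well (Fdps, Tm7sf2 and Nsdhl, 1.19%). All exposed lungs lay above all vehicle lungs for 3 members after NRCWE-001 (1.99% of all genes) and for 8 after NRCWE-002 (3.55%).

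**Figure D1:**
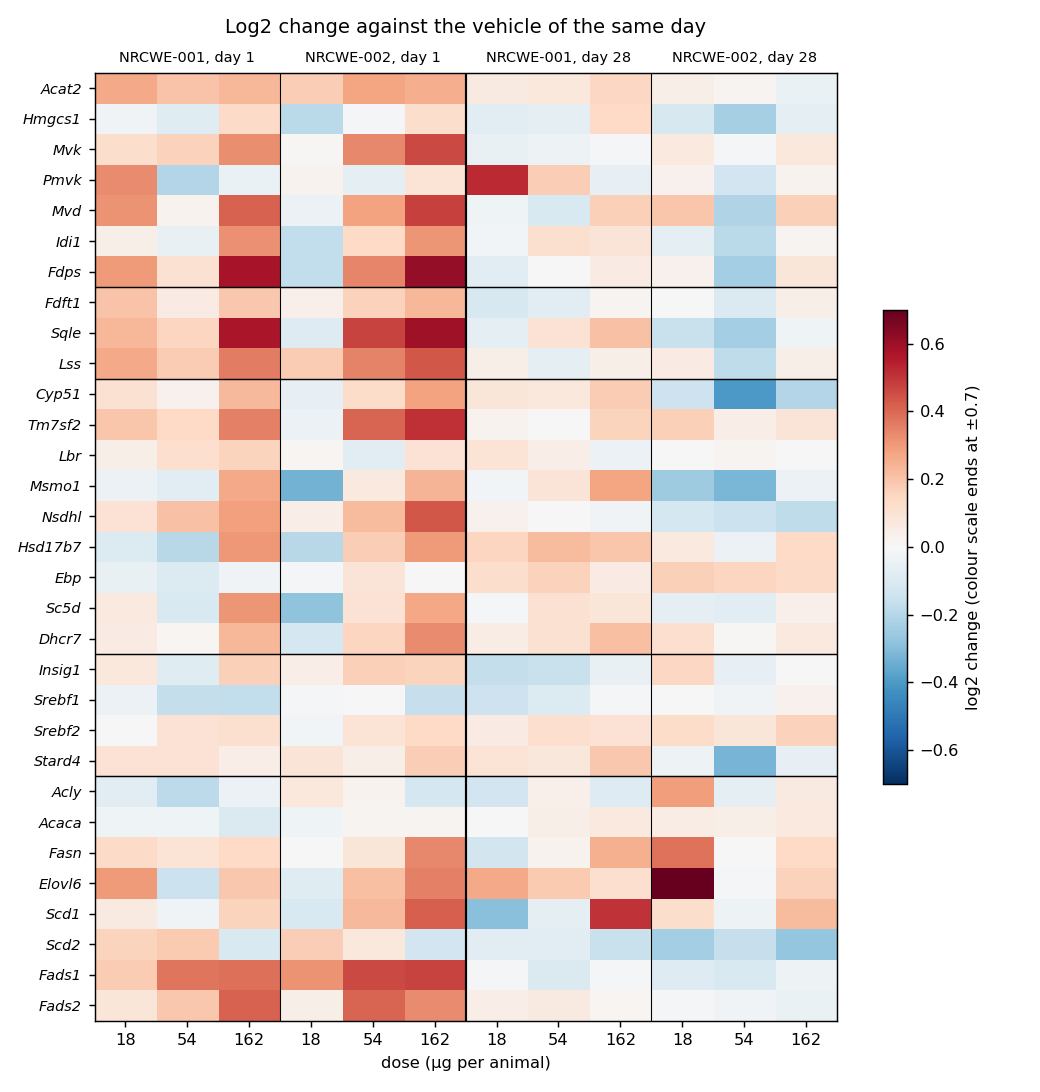
Log2 change of each gene against the vehicle of the same day, by particle, day and dose (µg per animal). Rows are ordered by role, from the mevalonate branch at the top to fatty acid genes at the bottom. On day 1 at 162 µg, 25 (NRCWE-001) and 28 (NRCWE-002) of 31 cells are above 0. Elovl6 at 18 µg of NRCWE-002 on day 28, at 0.86, is beyond the end of the scale.

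A fit with slide as a fixed block called 9 members for NRCWE-001 (4.38% of all genes were called) and 5 for NRCWE-002 (1.96%), each of them higher than vehicle. The 9 were Acat2, Mvk, Mvd, Fdps, Lss, Nsdhl, Dhcr7, Insig1 and Fads2. The 5 were Mvk, Fdps, Nsdhl, Fads1 and Fads2. As a random block, slide gave 7 and 6 (3.31 and 2.9%). Sizes moved little: the median over the members was 0.26 and 0.25 with the fixed block.

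**Figure D2:**
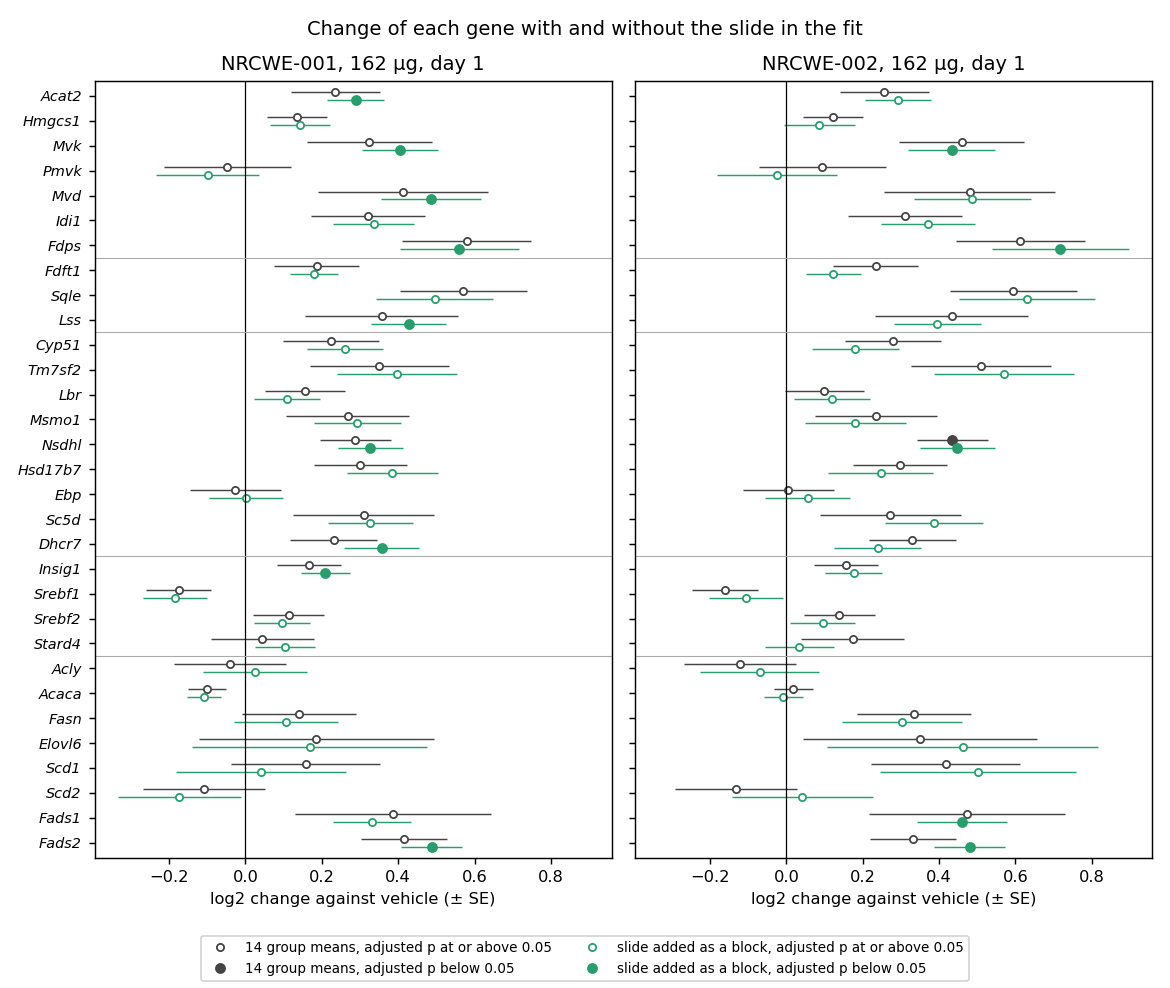
Log2 change against vehicle (± SE) of each gene at 162 µg on day 1, from the fit of 14 group means (grey) and with slide as a block (green). Filled points have an adjusted p below 0.05. Nsdhl is the single filled grey point, at 0.43 for NRCWE-002, and 9 and 5 green points are filled.

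Slides that held both a vehicle lung and a 162 µg lung of day 1 allowed the comparison inside a slide. For NRCWE-001 there were 3 such slides, with 25, 25 and 26 of 31 genes higher in the exposed lung (53.9, 51.6 and 48.6% of all genes) and medians of 0.23, 0.28 and 0.33. On each of the 3, 22 genes were higher (71.0%), against 21.9% of all genes. For NRCWE-002 there were 2 slides. On the first, 31 of 31 genes were higher (52.1% of all genes), with a median of 0.46. On the other, which held the vehicle lung with the highest member values, 21 were higher (54.5%), with a median of 0.08. On both, 21 genes were higher (67.7%), against 31.9% of all genes. The remaining lungs at 162 µg lay on slides without a vehicle lung and did not enter. These were replicates 4 and 5 of NRCWE-001 and replicates 2, 4 and 5 of NRCWE-002. Among them was the NRCWE-001 lung with the lowest mean over the members, replicate 5.

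**Figure D3:**
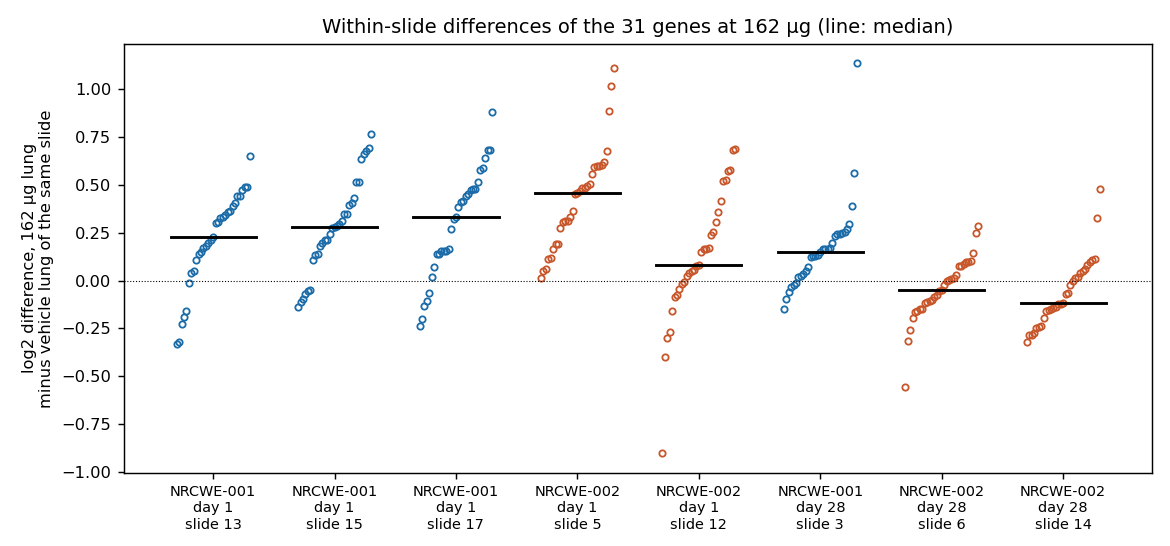
Difference in log2 ratio between the 162 µg lung and the vehicle lung on the same slide. Each point is 1 of the 31 genes and the bar is their median. On day 1 the medians run from 0.08 to 0.46 over 5 slides, and on day 28 from -0.12 to 0.15 over 3 slides.

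The mean over the 31 genes, with each gene set to 0 at the vehicle mean of its day, summarises each lung. On day 1 the vehicle lungs ranged from -0.09 to 0.14, with an SD of 0.09. After 162 µg of NRCWE-001 the 5 lungs were at 0.24, 0.24, 0.25, 0.26 and 0.04 (mean 0.21 ± 0.09, SD). Replicate 5 was thus inside the vehicle range and the other 4 above it. After 162 µg of NRCWE-002 the lungs lay between 0.20 and 0.35 (0.26 ± 0.06), with no overlap with the vehicle lungs.

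The doses did not line up in the same way for both particles. For NRCWE-002 on day 1 the group means were -0.02 ± 0.06 for the lowest dose, 0.17 ± 0.06 for the middle dose and 0.26 ± 0.06 for the highest. For NRCWE-001 they were 0.11 ± 0.13, 0.03 ± 0.03 and 0.21 ± 0.09, so the middle dose had the lowest value. This order changed with median centring, where the NRCWE-001 means were 0.18, 0.19 and 0.31. The medians of all genes moved too, from 0.01 at each dose to 0.04, 0.08 and 0.05. Under the other scalings the median over the members stayed lowest at the middle dose of NRCWE-001. It was 0.04 with the authors' table, 0.02 without background correction and 0.04 with processed signals. Single members had group means that increased from vehicle through each dose in 6 cases for NRCWE-001 (Mvk, Lbr, Nsdhl, Srebf2, Fads1 and Fads2; 6.65% of all genes) and in 5 for NRCWE-002 (Mvk, Fdft1, Lss, Nsdhl and Fads1; 7.69%).

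**Figure D4:**
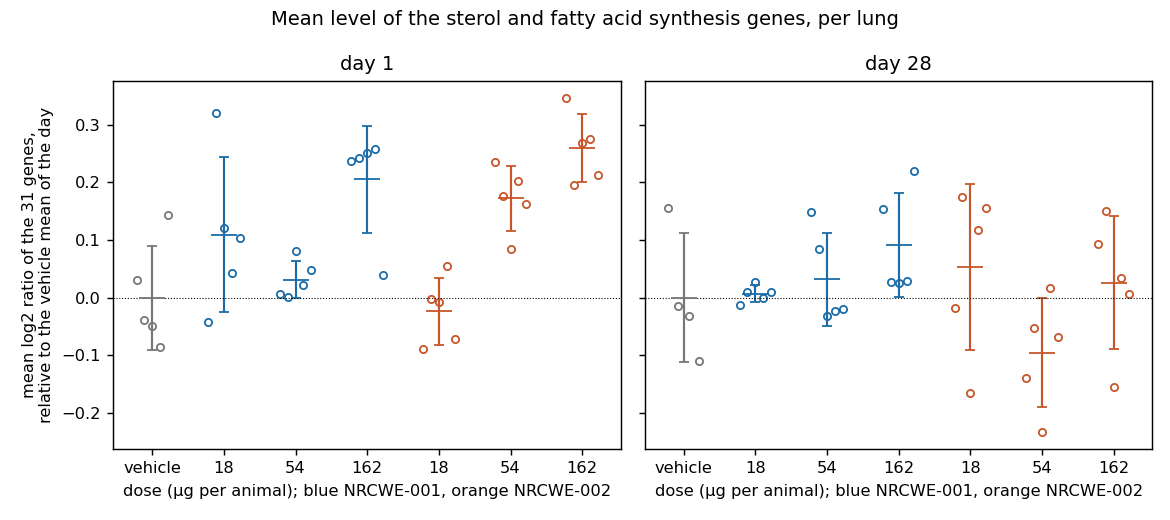
Mean log2 ratio of the 31 genes in each lung, relative to the vehicle mean of the day. Circles are lungs, bars are the group mean ± SD, grey is vehicle, blue NRCWE-001 and orange NRCWE-002. On day 1 the NRCWE-002 means run from -0.02 at 18 µg to 0.26 at 162 µg, and on day 28 all group means lie between -0.10 and 0.09.

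In the test of any difference among the 3 doses and the vehicle, limma called Nsdhl (adjusted p = 0.0161), Fdps (0.0201) and Sqle (0.0215) for NRCWE-002 on day 1, that is 3 of 31 members where 0.823% of all genes were called. For NRCWE-001 on day 1 it called 0 members, with 8 at an unadjusted p below 0.05 (7.87% of all genes), where 0.698% were called. Slide as a fixed block gave 6 members for NRCWE-002 (2.36% of all genes) and 9 for NRCWE-001 (7.43%). Single lungs at 162 µg also moved these counts. For NRCWE-002 1 member was called without replicate 1 (Sqle), 3 (Sqle) or 4 (Nsdhl) and 6 without replicate 5, where 0.494, 0.425, 0.329 and 1.5% of all genes were called. For NRCWE-001 2 were called (Sqle and Hsd17b7) without replicate 5, against 1.7%.

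Among the genes of the mevalonate branch, 6 of 7 were higher after NRCWE-001 and 7 of 7 after NRCWE-002 at 162 µg on day 1, with none called in the fit without slide. Their medians were 0.32 and 0.31. Fdps makes farnesyl diphosphate, the last isoprenoid shared by sterols and other products. Its levels in the vehicle lungs were -0.72, -1.02, -0.86, -1.04 and -0.94. After 162 µg they were -0.24, -0.35, -0.22, -0.03 and -0.86 for NRCWE-001, and -0.03, -0.38, -0.25, -0.19 and -0.68 for NRCWE-002.

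All 5 NRCWE-002 lungs thus lay above the vehicle lungs for Fdps, and 4 of the 5 NRCWE-001 lungs did. The log2 changes were 0.58 ± 0.17 (adjusted p = 0.116) and 0.61 ± 0.17 (adjusted p = 0.0762), or 1.49-fold and 1.53-fold. Both were called under the fixed slide block, at 0.56 and 0.72. Mvk, mevalonate kinase, was at 0.32 ± 0.16 and 0.46 ± 0.16 and was called for both particles with that block. Mvd, which decarboxylates mevalonate diphosphate, was at 0.41 ± 0.22 and 0.48 ± 0.22. Idi1, the isomerase of isopentenyl diphosphate, was at 0.32 and 0.31. Acat2, which here denotes the cytosolic acetyl-CoA acetyltransferase, was at 0.23 and 0.26.

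Hmgcs1, the HMG-CoA synthase whose start is shown above, was at 0.13 ± 0.08 and 0.12 ± 0.08. Its 2 probes differed for NRCWE-001, at 0.26 and 0.01, and the dimmer probe was well above background on 59 of 69 arrays. Pmvk, phosphomevalonate kinase, was at -0.05 ± 0.17 and 0.09 ± 0.17. These 2 members were thus nearer to 0 than the other 5 of the branch.

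The 3 genes of squalene and lanosterol formation were higher for both particles. Sqle encodes squalene epoxidase, a step that limits the rate of sterol synthesis. Its levels in the vehicle lungs were -1.41, -1.54, -1.60, -1.56 and -1.35. After 162 µg they were -0.76, -0.78, -0.92, -0.65 and -1.51 for NRCWE-001, and -0.96, -1.03, -0.94, -0.80 and -0.77 for NRCWE-002. Replicate 5 of NRCWE-001 was within the vehicle range, and the other 9 exposed lungs were above it.

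The changes of Sqle were 0.57 ± 0.17 (adjusted p = 0.114) and 0.59 ± 0.17 (adjusted p = 0.0791). Under the random block it was called for both (adjusted p = 0.0249 and 0.0154), and with the fixed block for neither (0.0543 and 0.0503). At 54 µg it was at 0.47 ± 0.17 for NRCWE-002. Lss, which closes the ring to lanosterol, was at 0.36 ± 0.20 and 0.43 ± 0.20. Fdft1, squalene synthase, was at 0.19 ± 0.11 and 0.23 ± 0.11, but its probes disagreed, at 0.46 and -0.09 for NRCWE-001 and at 0.50 and -0.03 for NRCWE-002.

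Of the 9 genes from lanosterol to cholesterol, 8 were higher after NRCWE-001 and 9 after NRCWE-002, with medians of 0.27 and 0.28. Nsdhl, a sterol dehydrogenase that acts in the removal of the C4 methyl groups, was the member called without a block. In the vehicle lungs its levels were -0.80, -0.68, -0.88, -0.85 and -0.83. After 162 µg of NRCWE-002 they were -0.34, -0.45, -0.26, -0.60 and -0.22, and after NRCWE-001 they were -0.47, -0.44, -0.41, -0.61 and -0.68. Neither particle's lungs overlapped with the vehicle lungs, with the nearest NRCWE-001 lung at the level of the highest vehicle lung to the second decimal.

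The change of Nsdhl was 0.43 ± 0.09 for NRCWE-002 (adjusted p = 0.0107, 1.35-fold) and 0.29 ± 0.09 for NRCWE-001 (adjusted p = 0.2). Under the fixed block both were called, at 0.45 (adjusted p = 0.0105) and 0.33 (0.0178). Its 3 probes ran from 0.43 to 0.47 for NRCWE-002 and from 0.24 to 0.35 for NRCWE-001. Without replicate 3 of the exposed group, the NRCWE-002 change was 0.41 and not called (adjusted p = 0.0535), and with median centring it was 0.52 (0.11). On the 5 slides of day 1 with a vehicle lung, the difference within the slide was 0.24 to 0.57.

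Tm7sf2, a sterol C14 reductase, was at 0.35 ± 0.18 and 0.51 ± 0.18. Lbr, which carries the same reductase activity in the nuclear envelope, was at 0.16 ± 0.10 and 0.10 ± 0.10. Hsd17b7, the ketoreductase of C4 demethylation, was at 0.30 and 0.30, and Sc5d, a sterol desaturase, by 0.31 and 0.27. Dhcr7, which makes cholesterol from 7-dehydrocholesterol, was at 0.23 ± 0.11 and 0.33 ± 0.11. Cyp51, the lanosterol 14-demethylase, was at 0.22 ± 0.13 and 0.28 ± 0.13, and Msmo1, the C4 methyl oxidase, by 0.27 ± 0.16 and 0.24 ± 0.16. Ebp, a sterol isomerase, was at -0.03 ± 0.12 and 0.00 ± 0.12.

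**Figure D5:**
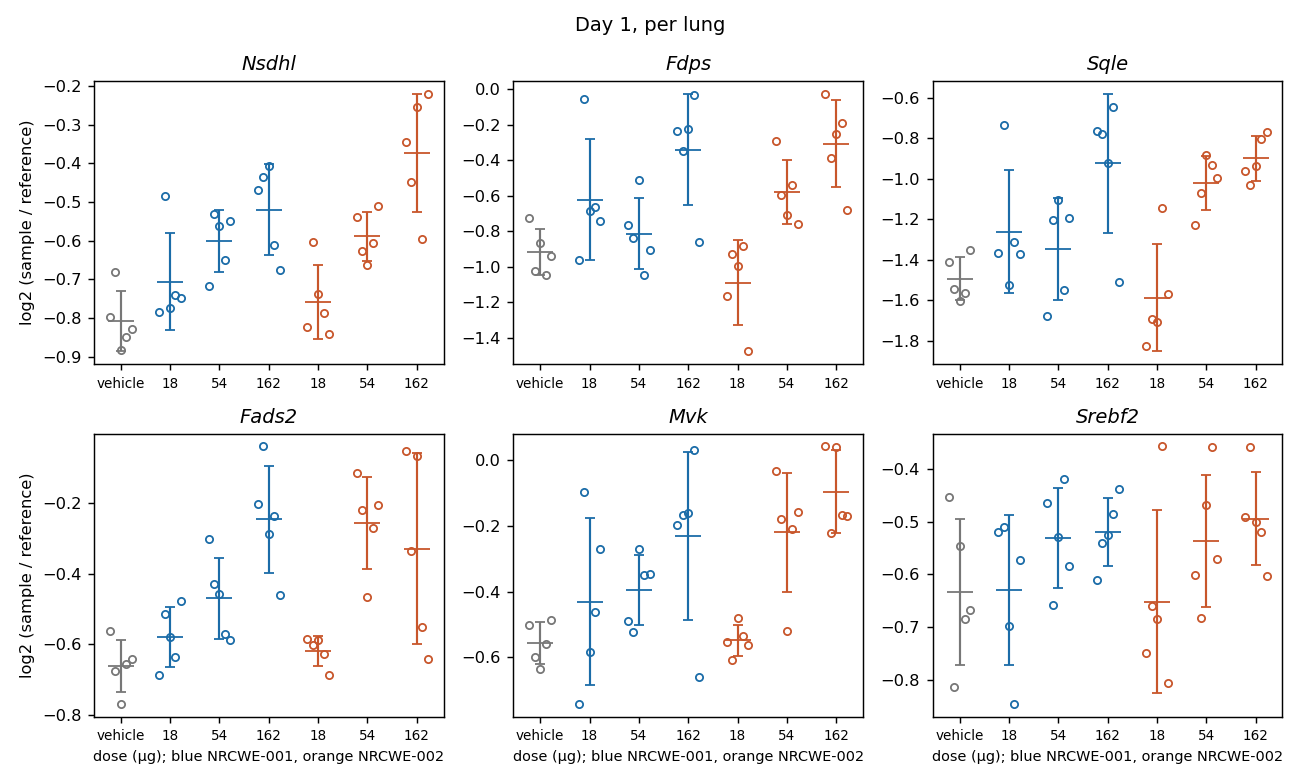
Log2 ratio to the reference RNA in each lung on day 1 for 6 genes, with vehicle in grey, NRCWE-001 in blue and NRCWE-002 in orange (bars, mean ± SD). The Nsdhl means are -0.81 in vehicle lungs, -0.52 after 162 µg of NRCWE-001 and -0.37 after 162 µg of NRCWE-002.

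Of the 4 regulators and carriers, 3 were higher for each particle, with medians of 0.08 and 0.15 and none called without a block. Insig1 was at 0.17 ± 0.08 and 0.16 ± 0.08. Its levels in vehicle lungs were -0.40, -0.59, -0.27, -0.44 and -0.43, against -0.17, -0.39, -0.10, -0.27 and -0.37 after NRCWE-001 and -0.14, -0.34, -0.29, -0.23 and -0.35 after NRCWE-002. The groups overlapped for both particles.

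Srebf2 was at 0.11 ± 0.09 and 0.14 ± 0.09. Its vehicle lungs ranged from -0.81 to -0.45, and the exposed lungs, from -0.61 to -0.44 and from -0.60 to -0.36, overlapped with them. The 2 probes of Srebf2 differed, at 0.28 and -0.06 for NRCWE-001 and at 0.31 and -0.03 for NRCWE-002. Srebf1 was at -0.17 ± 0.09 and -0.16 ± 0.09, the lowest of the 31 changes for each particle, and neither was called. Its vehicle lungs were at 0.85, 0.78, 0.75, 0.60 and 0.90, and the NRCWE-001 lungs at 0.53, 0.67, 0.55, 0.42 and 0.83. Scaling by the median of the array, in place of loess, turned the NRCWE-002 value to 0.02, where the median of all genes was 0.04. Stard4, a carrier of sterol between membranes, was at 0.04 ± 0.13 and 0.17 ± 0.13, and its 3 probes lay on both sides of 0.

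The genes of fatty acid synthesis and desaturation were less uniform, with 5 of 8 higher after NRCWE-001 and 6 of 8 after NRCWE-002 (medians 0.15 and 0.33). Fads2 and Fads1 are desaturases of long polyunsaturated fatty acids. Fads2 levels in vehicle lungs were -0.56, -0.68, -0.77, -0.66 and -0.64. After 162 µg they were -0.20, -0.04, -0.29, -0.24 and -0.46 for NRCWE-001, which lay above all vehicle lungs, and -0.05, -0.33, -0.07, -0.55 and -0.64 for NRCWE-002, which overlapped with them.

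The changes of Fads2 were 0.42 ± 0.11 (adjusted p = 0.0703) and 0.33 ± 0.11 (adjusted p = 0.205). Under the fixed block they were 0.49 (adjusted p = 0.00034) and 0.48 (0.00431), and at 54 µg of NRCWE-002 Fads2 was the single member called in that fit (1.37% of all genes), at 0.48. Fads1 was at 0.39 ± 0.26 and 0.47 ± 0.26. Its slide share of 90.5% was the highest of the members, and with slide as a block its SE was 0.10 for NRCWE-001 and 0.12 for NRCWE-002, where it was called.

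Fasn, fatty acid synthase, was at 0.14 ± 0.15 and 0.33 ± 0.15. Its vehicle lungs were at 1.81, 1.68, 1.59, 1.67 and 2.05, against 2.14, 1.93, 2.21, 1.92 and 2.28 after NRCWE-002 and 2.01, 1.86, 2.00, 1.76 and 1.88 after NRCWE-001. Scd1, the stearoyl-CoA desaturase, was at 0.16 ± 0.20 and 0.42 ± 0.20. Its vehicle lungs were at 4.16, 4.01, 3.86, 3.45 and 4.45, and those given NRCWE-002 at 4.56, 4.49, 4.37, 4.03 and 4.56. For both genes the exposed and vehicle lungs overlapped.

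Scd2, a second stearoyl-CoA desaturase, was at -0.11 ± 0.16 and -0.13 ± 0.16. Acly, which supplies cytosolic acetyl-CoA, was at -0.04 ± 0.15 and -0.12 ± 0.15. Acaca, acetyl-CoA carboxylase, was at -0.10 ± 0.05 for NRCWE-001, with all 5 exposed lungs below all 5 vehicle lungs (1.41% of all genes), and at 0.02 ± 0.05 for NRCWE-002. Elovl6, a fatty acid elongase, had the widest error of the members, with 0.19 ± 0.31 and 0.35 ± 0.31. Its vehicle lungs were at -1.67, -1.77, -1.85, -1.83 and -0.28, so a single lung raised the vehicle mean.

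At the lower doses of day 1 no member was called, and in 3 of the 4 groups 0 of the 17628 genes were. At 54 µg of NRCWE-002, where 0.0624% of all genes were called, 27 of 31 were higher (50.3% of all genes), with a median of 0.15, and 8 had an unadjusted p below 0.05 (5.83%), all higher (3.03%). At 18 µg of NRCWE-002, 13 of 31 were higher (median -0.01, 47.8% of all genes). The lower doses of NRCWE-001 had 24 (18 µg, median 0.10, 53.4%) and 18 (54 µg, median 0.03, 54.2%) higher. In these groups 2, 1 and 1 members had an unadjusted p below 0.05, against 2.97, 4.91 and 4.55% of all genes.

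The particles themselves were compared over the mean of the 3 doses. On day 1, NRCWE-002 minus NRCWE-001 gave 0 called members (0.125% of all genes), 0 at an unadjusted p below 0.05 (7.32% of all genes) and differences between -0.09 and 0.11. For Sqle the difference was 0.01 ± 0.10, for Fdps -0.07 ± 0.10, for Nsdhl 0.04 ± 0.05 and for Fads2 0.03 ± 0.07.

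By day 28 the genes were close to the vehicle levels. Limma called 0 members in each of the 6 comparisons with the vehicle, where 0.193, 0 and 0.0454% of all genes were called for NRCWE-001 and 0, 0 and 0.00567% for NRCWE-002 from the lowest dose up. At an unadjusted p below 0.05 there were 1, 0 and 1 members for NRCWE-001 (8.16, 2.9 and 8.63% of all genes) and 2, 3 and 0 for NRCWE-002 (6.08, 4.96 and 6.71%). The medians ran from -0.06 at 54 µg of NRCWE-002 to 0.08 at 162 µg of NRCWE-001. At 162 µg, 22 of 31 genes were higher after NRCWE-001 (46.5% of all genes) and 20 of 31 after NRCWE-002 (46.8%). With scaling by the array median these counts were 31 and 4, so most members stayed higher for NRCWE-001 and the direction turned for NRCWE-002. That scaling also moved the median of all genes, from -0.01 to 0.05 for NRCWE-001 and from -0.01 to -0.08 for NRCWE-002. The medians of the members under it were 0.22 and -0.14. The other 3 scalings gave 22 to 23 and 18 to 21.

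Within slides of day 28, the 162 µg lung of NRCWE-001 had 25 of 31 genes higher than the vehicle lung on the single shared slide (median 0.15, 49.5% of all genes). The 2 shared slides of NRCWE-002 had 11 and 13 higher (medians -0.12 and -0.05, 48.8 and 46.8% of all genes). At 54 µg of NRCWE-002, 3 and 4 genes were higher on these slides (medians -0.31 and -0.11), against 45.3 and 48.0% of all genes. At 18 µg of NRCWE-002, 6 and 10 were higher (medians -0.14 and -0.06, 50.3 and 48.3%). For NRCWE-001, 24 and 22 were higher at 54 µg on 2 shared slides (medians 0.13 and 0.10, 47.8 and 48.3%). At 18 µg these counts were 13 and 20 (medians -0.01 and 0.05, 45.6 and 49.4%).

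At 162 µg, Scd1 had the highest change on day 28 for both particles. Its vehicle lungs were at 3.94, 3.38, 3.48 and 3.68. Those given NRCWE-001 were at 4.51, 3.70, 4.30, 3.96 and 4.17, a change of 0.51 ± 0.21 (adjusted p = 0.424), and those given NRCWE-002 at 4.06, 3.98, 3.13, 4.07 and 3.98, a change of 0.22. Scd2 had the lowest, at -0.16 and -0.27. With median centring Scd1 was at -0.036 for NRCWE-002 and Scd2 at 0.082 for NRCWE-001, and with slide as a block that Scd2 value was 0.024, so these signs turned. Under median centring the median of all genes was -0.075 for NRCWE-002 and 0.053 for NRCWE-001. Pmvk at 18 µg of NRCWE-001 was at 0.52 ± 0.18 (adjusted p = 0.306), with all 5 exposed lungs (0.46 to 0.95) above the vehicle lungs (-0.25 to 0.35), as for 0.964% of all genes. Elovl6 at 18 µg of NRCWE-002 was at 0.86 ± 0.33 (adjusted p = 0.72), and 1 lung, at 1.06, stood far above the other 4, at -1.97 to -0.79.

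The effect of 162 µg on day 28 minus that on day 1 was negative for 23 of the 31 members (NRCWE-001) and 26 of them (NRCWE-002), at medians of -0.09 and -0.23. All genes leaned the same way, with 44% of them positive and a median of -0.02 for each particle. No member and no other gene was called for either particle (0 of 17628), and 4 and 5 had an unadjusted p below 0.05, against 4.35 and 6.70% of all genes. Nsdhl was at -0.61 ± 0.14 for NRCWE-002 (adjusted p = 0.164) and -0.31 ± 0.14 for NRCWE-001. Sqle was at -0.62 ± 0.24 and Fdps at -0.53 ± 0.25 for NRCWE-002. Between the vehicle lungs of the days limma called 0 of all genes (2 members at an unadjusted p below 0.05, against 5.75% of all genes). These results compare the days through separate vehicle groups of 5 and 4 lungs.

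On day 28 the particles differed for 4 members, where 4.75% of all genes were called. Cyp51 (-0.36 ± 0.07, adjusted p = 0.00297), Msmo1 (-0.32 ± 0.09, 0.0339) and Stard4 (-0.26 ± 0.08, 0.0378) were lower after NRCWE-002, and Insig1 was higher (0.15 ± 0.05, 0.048). The fixed slide block left 0 members called (0.0227% of all genes) and the differences were -0.03, -0.14, 0.00 and 0.12. With arrays of day 28 alone 0 members were called as well. When each lung was left out in turn, over 30 fits, the call was lost in 0 fits for Cyp51, 5 for Msmo1, 11 for Stard4 and 14 for Insig1. For the last 3 genes these included each fit without replicate 2 of the 18, 54 or 162 µg NRCWE-002 group.

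The Cyp51 levels show where these differences lay. After NRCWE-002 the levels of the 18 µg group were -1.01, -1.11, -1.19, -1.08 and -0.73, those for 54 µg were -1.21, -1.87, -1.37, -0.95 and -0.997, and those for 162 µg were -1.13, -1.32, -1.33, -0.92 and -0.71. After NRCWE-001 all 15 lungs lay between -0.96 and -0.40. Replicate 2 of each NRCWE-002 dose shared a slide that held no other group, and at 54 µg it was the lowest lung.

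On the 2 slides of day 28 that held the same doses of both particles, the particles' Cyp51 levels differed by 0.03 and 0.01. The same slides gave 0.06 and -0.05 for Msmo1 and 0.02 and 0.02 for Stard4. Insig1 kept a positive difference, at 0.24 and 0.04. The other slides that held day 28 lungs of 1 particle could not give such a value.

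Cell type markers were set beside the changes at 162 µg on day 1. Of all genes, 0.579% were called there for NRCWE-001 and 0.596% for NRCWE-002. Of 9 measured alveolar type 2 markers, 0 were called for either particle, and their medians were -0.08 and -0.06. The list mean of each lung ranged from -0.13 to 0.00 after NRCWE-001 and from -0.22 to 0.18 after NRCWE-002, against -0.10 to 0.09 in vehicle lungs. Of 8 neutrophil markers, 2 were called for NRCWE-001 (Cxcr2 at 0.69 and Csf3r at 0.80) and 0 for NRCWE-002, with list means of -0.07 to 0.99 and 0.05 to 0.55, against -0.25 to 0.34. In replicate 5 of NRCWE-001, which had the lowest level of the sterol and fatty acid genes, the neutrophil list was at -0.07, the lowest of its group.

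Of 8 macrophage markers, 2 were called lower for NRCWE-001 (Fabp1 at -1.74 and Ear1 at -1.30) and 0 for NRCWE-002. The list means ranged from -0.86 to -0.14 and from -0.23 to 0.16, against -0.33 to 0.21 in vehicle lungs. Of 12 adipocyte markers, 0 were called, with list means of -0.69 to 0.60 and -0.59 to 1.01, against -0.47 to 0.45. Each measured type 2 cell and macrophage marker was well above background on 69 arrays by at least 1 of its probes, while the neutrophil genes Camp and Ngp were on 51 and 38. Other macrophage probes were on fewer, such as a probe of Adgre1 (19 arrays) and probes of Msr1 (48 and 65). Lpcat1, Cd68, Siglec5 and Ly6g were not measured. Of 5 alveolar type 1 markers, 1 was called for each particle (Pdpn at 0.68 and 0.58), and no marker of ciliated, secretory, endothelial, cardiac or proliferating cells was. The part of cell composition in the changes was not tested.

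The other genes of the pathways were counted from lists of their own. Of 16 further genes of sterol synthesis, uptake and SREBP control, 0 were called at 162 µg on day 1 for either particle, with 8 and 9 of them higher. Of 19 further genes of fatty acid and triglyceride synthesis, 0 were called, with 11 and 13 higher. Among all genes, 53.1 and 54.9% were higher, and 0.579 and 0.596% were called.

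Of 10 genes of cholesterol efflux and oxysterols, 1 was called at 162 µg on day 1, for NRCWE-001, where 0.579% of all genes were. Abcg1, a sterol exporter of macrophages, fell by 0.89 ± 0.21 for NRCWE-001 (adjusted p = 0.0243). It was at -0.79 ± 0.21 for NRCWE-002 (adjusted p = 0.0607). All 5 exposed lungs lay below all vehicle lungs for each particle (1.41 and 1.36% of all genes). Ch25h, which makes 25-hydroxycholesterol, was at 1.38 ± 0.42 (adjusted p = 0.161) and 1.495 ± 0.42 (0.0871). Of 10 genes of the fasting response, 0 were called at 162 µg on day 1. On day 28, Acot1 was called at 18 µg of NRCWE-001 (-0.90 ± 0.18, adjusted p = 0.012). Creb3l3 was called in the particle difference (1.16 ± 0.24, adjusted p = 0.00369), but not with slide as a fixed block (0.593).

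Across the 69 lungs, after removal of group means, the 31 genes varied together to a small extent. The median Pearson correlation of the 465 pairs was 0.13, with 302 above 0, and that of members with other genes was 0.00. With slide means removed too, these were 0.20 and 0.01. The lungs share slides and reference RNA, so these are descriptions. Fdps had the highest mean correlation with the other members, at 0.27, and Lbr the lowest, at -0.06.

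Of 7 pairs of genes tested across the 69 lungs by permutation within groups, 2 passed after Benjamini-Hochberg adjustment. Fasn and Scd1 had r = 0.49 (permutation p = 0.00021, adjusted 0.00147) and Spearman's rho = 0.48 (permutation p = 0.00023, adjusted 0.00161). Idi1 and Sqle had r = 0.43 (permutation p = 0.00642, adjusted 0.0225) and rho = 0.38 (permutation p = 0.00412, adjusted 0.0144). Without the 2 lungs farthest from the median of the first gene, r was 0.48 and 0.42. With slide means removed, r was 0.61 for both pairs.

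The other 5 pairs did not pass. Srebf2 with Sqle had r = 0.17 (permutation p = 0.249, adjusted 0.432; rho = 0.13, permutation p = 0.329, adjusted 0.46), and Insig1 with Sqle had r = -0.07 (permutation p = 0.596, adjusted 0.596; rho = -0.08, permutation p = 0.545, adjusted 0.545). Fasn with Sqle, across the branches, had r = 0.20 (permutation p = 0.203, adjusted 0.432; rho = 0.19, permutation p = 0.153, adjusted 0.358). Scd1 with the adipocyte gene Adipoq had r = 0.15 (permutation p = 0.309, adjusted 0.432; rho = 0.11, permutation p = 0.399, adjusted 0.466), and Fasn with the type 2 cell gene Sftpc had r = 0.13 (permutation p = 0.43, adjusted 0.501; rho = 0.14, permutation p = 0.286, adjusted 0.46). The permutations did not take slide into account. With slide means removed, r was 0.40 for Srebf2 with Sqle, 0.25 for Insig1 with Sqle, -0.013 for Fasn with Sqle, -0.020 for Scd1 with Adipoq and 0.050 for Fasn with Sftpc, so the sign turned for 3 of the 5 pairs.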

How the data were processed

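Lung RNA (Cy5) and a mouse reference RNA (Cy3) were hybridised to 2-colour Agilent arrays, without dye swaps, so levels are open to dye bias. The deposited files came from Agilent Feature Extraction 11.0.1.1 run by the authors and held the intensity of each spot and its local background. The authors' table held log2 ratios after LOWESS, which correlated at 0.987 to 0.995 with those computed here, and was used as an alternative.

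Intensities were corrected with normexp (offset 50; its fit left out spots with a local background beyond 10 median absolute deviations) and normalized by loess in limma 3.58.1 (R 4.3.3). This left-out step and the within-slide comparisons were chosen after seeing the data. Control and outlier spots were dropped, and 0 spots were saturated. The alternatives planned on mean signals used median signals. Probes well above background on at least 4 arrays were kept, matched by accession to RefSeq symbols of assembly GRCm38.p6 (27479 of 41174 probes) and summarised by their median per gene. The array annotation followed build mm9, so coordinates come from RefSeq alone. A single limma fit over 14 group means gave all contrasts, with Benjamini-Hochberg adjustment over 17628 genes. The fit was tested on simulated data, which held slide effects for the fit with slide as a fixed block but none for the main fit. That test thus did not cover the main fit where slides differ. Labels name 1 mouse per array, and their number limits the precision.

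The members, lists and tests were chosen with earlier results of these data known. Values were named for Sqle, Insig1, Srebf2, Scd1 and Fasn, for called members, and for the members with the highest and lowest change at 162 µg. Values of the other members were given to account for the whole list. Values of some further pathway genes are not reported here.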

Additional observations from a re-analysis of the deposited data

Results flagged for a closer look

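The level of 1 lung stood apart from the others of its group in 15 of 182 groups tested, where chance flags about 1 in 20. The groups were those of the mean over the 31 genes and of 12 named members. The other members, Elovl6 among them, were not tested in this way. The lung of 162 µg of NRCWE-001 on day 1, replicate 5, had a mean over the 31 genes of 0.040, against 0.24 to 0.26 in the other 4, and its Msmo1 level was -0.94, against -0.33 to -0.26. At 18 µg of NRCWE-001 on day 1, replicate 2 was high for Nsdhl (-0.48) and Sqle (-0.73). At 54 µg of NRCWE-001 on day 1, replicate 4 was high for Stard4 (0.012) and Srebf1 (0.82).

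Cyp51 was high in replicate 1 at 54 µg of NRCWE-001 on day 28 (-0.44) and in replicate 4 at 162 µg of NRCWE-002 on day 1 (-0.47). Msmo1 was high in vehicle replicate 5 of day 1 (-0.43). At 162 µg of NRCWE-002 on day 28, replicate 2 was high for Insig1 (-0.082) and replicate 3 low for Scd1 (3.13). At 54 µg of NRCWE-002 on day 28, replicate 2 was low for Stard4 (-1.49) and high for Srebf1 (0.86) and Scd2 (0.54), and replicate 5 was low for Scd1 (3.43).

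The particles differed on day 28 by a test of the difference for Cyp51 (-0.36), Msmo1 (-0.32), Insig1 (0.15) and Stard4 (-0.26), all given as NRCWE-002 minus NRCWE-001. With slide as a block none of the 4 was called.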

How the results depend on the processing

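Across the settings other than leaving out a lung, 239 of 286 values of named genes and 277 of 329 counts, scores and correlations stayed close to the main value or on the same side of the threshold, and 47 and 52 did not. Of the counts of called members in 25 comparisons, 8 moved with slide as a fixed block, 10 as a random block and 7 with scan day as a block, as did 6 of 22 with arrays of 1 day alone. For NRCWE-001 at 162 µg on day 1 the main count of 0 became 1 with the scanner software's processed signals, 9 and 7 with slide as a fixed and a random block, 11 with scan day as a block and 4 with day 1 arrays alone, where 0.374, 4.38, 3.31, 4.28 and 1.53% of all genes were called. For NRCWE-002 the count of 1 became 5, 6, 11 and 9 in these last 4, and 0 with median centring (1.96, 2.9, 4.46, 2.72 and 0.227%). At 54 µg of NRCWE-002 it became 1, 2, 1 and 1 (1.37, 1.09, 0.777 and 0.199%). For the mean of the doses it became 1 and 1 (NRCWE-001, fixed and random block; 0.278 and 0.306%) and 1, 2 and 1 (NRCWE-002, with scan day last; 0.857, 0.686 and 0.533%). The dose effect of day 1 gave 9, 6, 12 and 1 for NRCWE-001 (7.43, 5.7, 6.59 and 2.18%), and 6, 6, 12 and 8 for NRCWE-002, or 1 with median centring (2.36, 2.85, 4.1, 3.01 and 0.55%). On day 28 the random block gave 2 for the dose effect of NRCWE-001 (2.87%), and 1 for the difference between days of NRCWE-002 (0.0397%).

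The particle difference of day 28 (4 members) became 0 with either block, with scan day and with the day alone (0.0227 to 0.176% of all genes), 1 with processed signals (3.01%) and 17 with median centring (25.6%). Stard4 there turned to 0.0014 (slide) and 0.041 (scan day). Median centring turned Srebf1 (NRCWE-002, 162 µg, day 1) to 0.022, Scd2 (NRCWE-001, 162 µg, day 28) to 0.082 and Scd1 (NRCWE-002, 162 µg, day 28) to -0.036, and a slide block turned that Scd2 value to 0.024. It moved the mean over the 31 genes to 0.19 and 0.31 (NRCWE-001, 54 and 162 µg) and to -0.11 and 0.36 (NRCWE-002, 18 and 162 µg) on day 1, and on day 28 to 0.093 and 0.23 (NRCWE-001, 18 and 162 µg) and to -0.10 and -0.14 (NRCWE-002, 18 and 162 µg). On day 1 it moved the median of all genes from 0.01 to 0.08 (NRCWE-001, 54 µg) and from 0.01 to 0.04 (NRCWE-002, 162 µg). On day 28 at 162 µg it moved that median from -0.01 to 0.05 (NRCWE-001) and from -0.01 to -0.08 (NRCWE-002). For the day difference of NRCWE-002 at 162 µg it moved the median from -0.02 to -0.13. Correlations became 0.32 (Insig1 with Sqle), 0.48 (Srebf2 with Sqle), 0.63 (Fasn with Sqle) and 0.59 (Sftpc with Fasn) under it, and 0.25, 0.40 and -0.013 for the first 3 and -0.020 for Adipoq with Scd1 with slide removed. The cause of these moves was not tested.

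Leaving out 1 lung at a time gave 0 to 3 called members at 162 µg on day 1 for each particle, and the 3 came without replicate 5 of the exposed group (Fdps, Sqle and Fads2 for NRCWE-001; Fdps, Tm7sf2 and Nsdhl for NRCWE-002). For NRCWE-002 the 0 came without replicate 3. The dose effects of day 1 gave 0 to 2 and 1 to 6, again highest without replicate 5 at 162 µg. For NRCWE-002 the 1 came without replicate 1, 3 or 4 at 162 µg. The particle difference of day 28 gave 1 (without replicate 2 at 18 µg of NRCWE-002) to 6 (without replicate 4 at 54 µg of NRCWE-002), the day difference of NRCWE-002 0 to 1 and the dose effect of NRCWE-001 on day 28 0 to 1. Comparisons across days had no value from arrays of 1 day. No paired analysis was possible because the labels give no replicate numbers that tie lungs of different groups. Slides, which tie some of them, were used as a block, and exposed and vehicle lungs were compared within slides.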
